A study of Mus musculus with 6 samples.

Results

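The genes described here, 9 in number, serve fatty acid oxidation, and their transcripts were counted in primary renal tubular epithelial cells of the mouse. They were taken by symbol from the 55487 genes of the deposited tables, and all 9 were found there. They are Cpt1a and Cpt2 of the carnitine shuttle, the acyl-CoA dehydrogenase genes Acadvl, Acadl and Acadm, the trifunctional protein genes Hadha and Hadhb, the peroxisomal thiolase gene Acaa1a, and Ppara, which encodes a nuclear receptor. The members were picked with earlier results of these data known.

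Bulk RNA sequencing was done on 6 libraries. The 3 control libraries came from cells labelled wild type that had received a control adenovirus. The 3 knockout libraries came from cells labelled ELF3 knockout, in which an adenovirus carrying Cre recombinase was used to delete Elf3, a gene for an epithelial transcription factor of the ETS family. Cells of both groups were exposed to the cytokines TNFα and IFNγ, and the labels place all 6 libraries in 1 batch. Mouse strain, age, cytokine dose, exposure time, the promoter that drove Cre and the allele it recombined are stated neither in the labels nor in the files analysed here. Expression of Cre and loss of Elf3 fell in the same libraries and cannot be told apart, and no library without cytokines was analysed here. Nothing says that replicates came from separate mice or cultures, so p-values measure the spread between these samples, which may be technical.

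Long-chain fatty acids reach the mitochondrial matrix as carnitine esters, made by carnitine palmitoyltransferase 1 on the outer membrane and turned back into acyl-CoA by carnitine palmitoyltransferase 2 on the inner membrane. Acyl-CoA dehydrogenases of differing chain-length preference then start each round of beta-oxidation, and the mitochondrial trifunctional protein carries out the remaining steps for long chains. Peroxisomes shorten very long chains with their own enzymes, and PPARα is a lipid-activated receptor that raises transcription of many of these genes. Proximal tubule cells of the kidney are known for drawing much of their energy from fatty acids.

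Counts totalled between 8961779 and 10774195 per library, and a floor of 3 counts corresponded to 0.278 to 0.335 CPM (counts scaled to the library total), for counting error only. Elf3 was counted 201, 250 and 206 times under the control virus and 38, 32 and 21 times in knockout libraries, so the labels fit the targeted gene as counted over its whole length. All 9 listed general markers of tubular epithelium were detected, and all 9 were called, 6 higher and 3 lower, with a summed level of 4551 to 4742 CPM in control and 6094 to 6215 in knockout libraries. Of 20 proximal tubule markers, 5 had at most 3 counts over the 6 libraries together (Slc34a1, Miox, Slc22a6, Slc7a13 and Fbp1). The summed level of that list was 206 to 211 CPM under the control virus and 141 to 152 in knockout libraries, with 4 of 10 tested markers lower and 1 higher. Leukocyte markers summed to 72 to 78.7 and 50.5 to 55.6 CPM, with Cd14 the 1 marker of 10 tested that was called, and with Cd3g, Cd3e, S100a8 and S100a9 at 3 counts or fewer. Fibroblast and mural cell markers summed to 382 to 427 and 438 to 458 CPM, with 3 of 8 tested higher and 1 lower, and Lum at 3 counts or fewer. Podocyte markers summed to 159 to 163 and 283 to 322 CPM (2 of 4 tested higher, 1 lower). Loop of Henle and distal tubule markers summed to 372 to 386 and 513 to 565 CPM (1 of 3 higher, 1 lower). Of these, Pvalb and Kcnj1 were at 3 counts or fewer. Wnk1, the 1 called higher, averaged 363 CPM in control and 530 in knockout libraries, and so made up most of that sum. Cldn19, the 1 called lower, averaged 13.3 and 7.44 CPM, and Umod, not called, 2.79 and 1.61 CPM. Collecting duct markers summed to 20.02 to 20.9 and 30.1 to 30.3 CPM (1 of 3 higher, 1 lower, with Slc4a1, Aqp2, Atp6v1g3 and Foxi1 at 3 counts or fewer). Endothelial markers summed to 45.7 to 49.8 and 55.3 to 62.4 CPM, with Kdr, 5.59-fold higher, the 1 of 3 tested that was called, and Emcn at 3 counts or fewer. Adipocyte and muscle markers summed to 22.5 to 28.6 and 73.3 to 85.5 CPM, with Acta1, the 1 tested, 3.09-fold higher, and Adipoq, Plin1, Myh4 and Lep at 3 counts or fewer. The part of these shifts in the results below was not tested. In bulk RNA, fewer cells of a type and less RNA per cell cannot be told apart.

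Promoter sequence from RefSeq (GRCm38.p6, the mm10 assembly) was matched for all 9 genes, in windows of 300 bases that run from 250 bases before the start to 50 after it. Stretches are shown for Acadl, which fell furthest among the members, for Acadvl, which rose, for the gap between the head-to-head genes Hadha and Hadhb, and for the match to an ETS consensus near the start of Cpt2. Acadl, Acadvl and Cpt2 were chosen for display after their values or matches were seen. Capitals mark GGAA or its complement TTCC, the core bound by ETS factors, in the Acadl and Acadvl sequences, and the match in Cpt2. The Acadl stretch is chr1:66863310-66863559 on the minus strand, Acadvl is chr11:70015429-70015678 on the minus strand, the Hadha-Hadhb gap is chr5:30155163-30155247 on the plus strand, and Cpt2 is chr4:107923584-107923613 on the minus strand.
Acadl: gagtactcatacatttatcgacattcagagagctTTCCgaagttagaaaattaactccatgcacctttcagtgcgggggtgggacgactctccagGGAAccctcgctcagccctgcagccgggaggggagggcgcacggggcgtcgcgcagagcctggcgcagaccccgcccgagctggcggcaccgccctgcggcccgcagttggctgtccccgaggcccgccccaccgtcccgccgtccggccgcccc
Acadvl: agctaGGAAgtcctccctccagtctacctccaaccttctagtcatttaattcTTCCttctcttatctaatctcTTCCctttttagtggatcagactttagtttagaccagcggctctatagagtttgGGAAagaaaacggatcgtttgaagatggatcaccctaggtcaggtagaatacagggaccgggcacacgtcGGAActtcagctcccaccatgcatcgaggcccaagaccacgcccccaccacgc
Hadha-Hadhb gap: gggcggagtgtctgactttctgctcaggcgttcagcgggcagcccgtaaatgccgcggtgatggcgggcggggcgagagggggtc
Cpt2: cctatcggtgcCCGGAAGTgcccctgtggg

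These stretches were searched by letters on both strands. GGAA stood at 2 places in the Acadl stretch and 5 in the Acadvl stretch, and 96% of the 32851 promoter windows in the table held it. The longer ETS consensus CCGGAAGT was found in the window of Cpt2 and of no other member, and 3.89% of all windows held it; each match to it also contains GGAA. The direct repeat AGGTCANAGGTCA, a consensus for PPAR and RXR pairs, was searched with up to 2 mismatches outside the N. It was found in none of the 9 member windows and in 3.86% of all windows. A match of letters is not evidence of binding, and its lack covers these windows only.

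Of the 9 members, 8 passed the filter on low counts, and 3 of them were called at an adjusted p under 0.05. Acadl and Acaa1a fell and Acadvl rose. Over all 13755 genes tested, 18.3% were called higher and 18.3% lower, or 36.6% in either direction, so 3 of 8 is near the share of all genes. The groups did not overlap in CPM for 4 of the 8 (Acadl, Acaa1a, Acadvl and Cpt2), against 46.7% of all tested genes. The median log2 fold change was 0.0044 over the 8 members and -0.0085 over all genes tested. Adjusted p-values here and below are from edgeR's quasi-likelihood test with Benjamini-Hochberg adjustment over all tested genes, and fold changes are knockout against control.

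**Figure D1:**
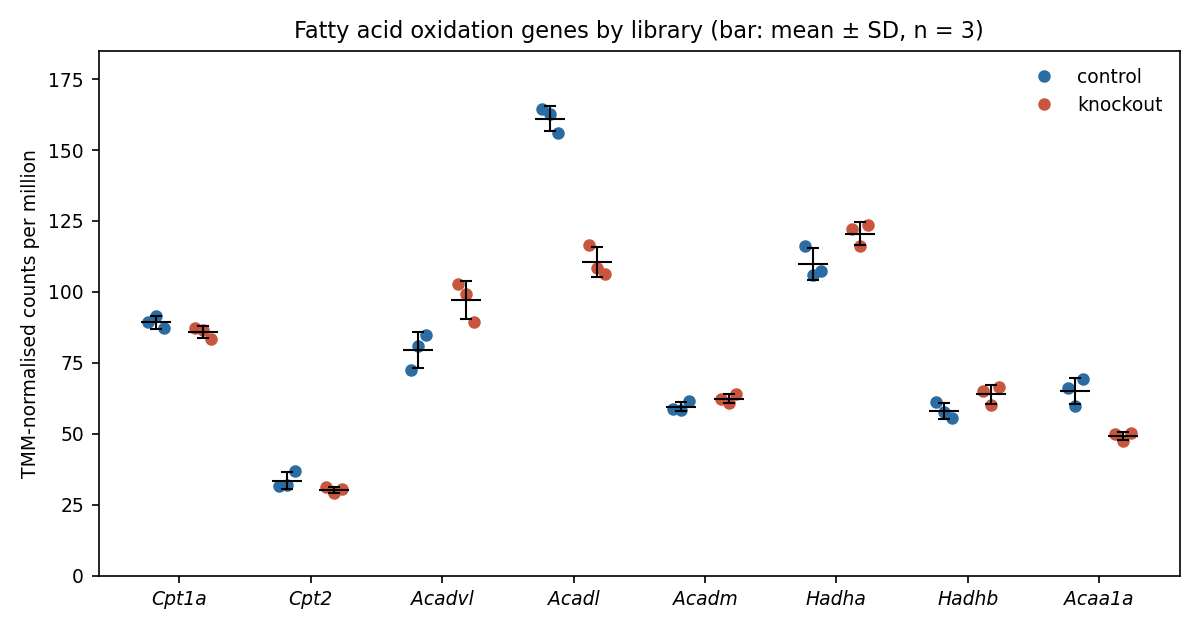
Level of 8 fatty acid oxidation genes in each library, in TMM-normalised CPM (vertical axis, linear), with 3 control (blue) and 3 knockout (red) libraries per gene and black bars for the mean ± SD. Acadl drops from 156 to 164 CPM in the controls to 106 to 116 in knockout libraries, while Cpt1a and Acadm overlap between groups.

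Cpt1a, which encodes the carnitine palmitoyltransferase 1 form of liver and kidney and catalyses the regulated step of mitochondrial import, differed little between groups. The gene (ENSMUSG00000024900) lies on mm10 chromosome 19, 3322334 to 3385733, plus strand. Its level was 89.2, 91.5 and 87.1 CPM in control libraries and 87.4, 86.5 and 83.5 CPM in knockout libraries. The knockout values were lower on average and overlapped with the controls. The log2 fold change was -0.06 with a 95% interval of -0.18 to 0.06 (adjusted p = 0.496).

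Cpt2 encodes the partner enzyme of the inner membrane and lies on chromosome 4, 107903981 to 107923610, minus strand (ENSMUSG00000028607). It was counted at 31.7, 31.9 and 37.0 CPM under the control virus and 31.2, 29.1 and 30.5 CPM in knockout libraries. Each knockout library was below each control, but the third control stood above the other 5 libraries. Cpt2 was not called (log2 fold change -0.15, 95% interval -0.32 to 0.03, adjusted p = 0.223). The ratio of Cpt1a to Cpt2 within a library, on TPM (a relative transcript abundance that divides by length), was 1.23 to 1.46 under the control virus and 1.43 to 1.54 in knockout libraries, and these ranges overlap.

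Acadl, encoding the long-chain acyl-CoA dehydrogenase, had the largest fold change of the 8 tested members. The gene (ENSMUSG00000026003) lies on chromosome 1, 66830839 to 66863277, minus strand. It received 1745, 1673 and 1414 estimated counts under the control virus and 1038, 1153 and 1102 in knockout libraries. On the CPM scale these were 164, 163 and 156 against 116, 108 and 106. The lowest control stood well above the highest knockout library, so the groups were far apart. The level fell to 68.6% of the control mean, a 1.46-fold fall with a 95% interval of 1.35 to 1.58 (adjusted p = 3.11e-09).

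Acadvl encodes the very long-chain acyl-CoA dehydrogenase, which acts on the longest chains at the inner membrane, and changed in the opposite direction. It lies on chromosome 11, 70010183 to 70015411, minus strand (ENSMUSG00000018574). Its level was 72.6, 80.8 and 84.9 CPM under the control virus and 102.8, 99.2 and 89.5 CPM in knockout libraries. The groups did not overlap, although the third control and the third knockout library came close to each other. The rise was 1.22-fold, with a 95% interval of 1.11 to 1.34 (adjusted p = 0.00123). The call was lost in a limma test on log2(TPM + 0.1), with an adjusted p of 0.0506, and on log2(TPM + 1) without a filter, at 0.0566. Exons of Acadvl share 1151 of their 2686 bases with those of Dvl2 on the opposite strand. Dvl2, a Wnt signalling gene, stood at 27.9 ± 2.01 CPM under the control virus and 24.3 ± 1.30 in the knockout (SD, n = 3 each; adjusted p = 0.113). The labels and files do not say if strand was used in counting, so reads of the overlap could belong to either gene.

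Acadm encodes the medium-chain acyl-CoA dehydrogenase, the enzyme lacking in the most common inherited disorder of this pathway, and lies on chromosome 3, 153922357 to 153944632, minus strand (ENSMUSG00000062908). By counts it was 58.8, 58.4 and 61.5 CPM under the control virus and 62.3, 60.8 and 64.0 CPM in knockout libraries. The groups overlapped, and the gene was not called (log2 fold change 0.07, 95% interval -0.07 to 0.20, adjusted p = 0.471). The authors' TPM table gave another picture, with 58.6, 61.8 and 60.6 TPM under the control virus and 74.3, 77.8 and 75.3 in knockout libraries. On that scale the groups were well separated, and limma on log2(TPM + 1) gave a log2 fold change of 0.32 (adjusted p = 0.0319).

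TPM divides by a transcript length that can vary with the isoforms assigned, so the number of counts per TPM, scaled to the median gene of each library, was compared. For Acadm it was 16.7% lower in knockout libraries. For the other 7 counted members the change was between -1.07% and 1.13%. Among 11754 tested genes with at least 20 counts in each library, 5.11% had a change as large as that of Acadm in either direction. Which transcripts of Acadm carried the difference is not given by the gene-level files.

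**Figure D2:**
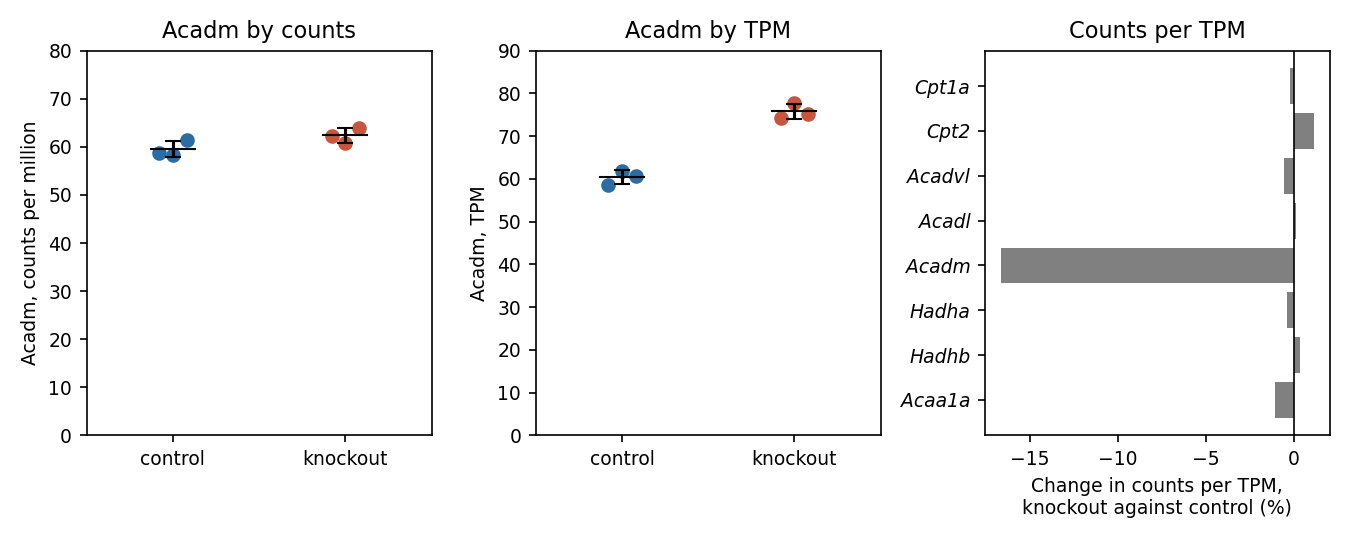
Acadm in each library by CPM (left) and by TPM (middle), with black bars for the mean ± SD of 3 libraries per group, and the percent change in counts per TPM from control to knockout for 8 members (right). Acadm overlaps between groups by counts and is separate by TPM, and its counts per TPM fell by 16.7% while the other members stay within 1.13% of no change.

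Within the trio of acyl-CoA dehydrogenases, the balance of transcripts differed between groups. The TPM of the 3 genes summed to 298 ± 4.11 under the control virus and 280.3 ± 5.98 in knockout libraries (SD, n = 3 each). Acadl made up 54.2% ± 1.24 of that sum under the control virus and 39.5% ± 0.859 in the knockout. The ratio of Acadl to Acadm was 2.81, 2.66 and 2.58 in control libraries and 1.53, 1.41 and 1.44 in knockout libraries. Each control ratio was above each knockout ratio, with a mean log2 difference of -0.88 on TPM and -0.61 on CPM. The two-sided exact permutation test gave p = 0.1, the smallest that 3 against 3 libraries can give, and an adjusted p of 0.25 over the 5 ratios compared. The ratio of Acadvl to Acadm overlapped between groups on TPM, and its mean log2 difference was -0.03 on TPM and 0.22 on CPM.

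Hadha and Hadhb encode the alpha and beta subunits of the mitochondrial trifunctional protein, the alpha subunit holding the hydratase and 3-hydroxyacyl-CoA dehydrogenase activities and the beta subunit the thiolase. They lie head to head on chromosome 5. Hadha (ENSMUSG00000025745) runs from 30118304 to 30155162 on the minus strand and Hadhb (ENSMUSG00000059447) from 30155248 to 30184593 on the plus strand. The 85 bases between their outermost starts in GENCODE M21 are the gap printed above. Hadha was counted at 116, 106 and 107 CPM under the control virus and 122, 116 and 123 CPM in knockout libraries. The first control overlapped with the lowest knockout library, and the others were lower.

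Hadhb was at 61.2, 57.8 and 55.4 CPM under the control virus and 65.1, 60.1 and 66.6 CPM in knockout libraries, again with the first control above the lowest knockout library. The log2 fold changes of the pair were 0.13 for Hadha (95% interval 0.02 to 0.25, adjusted p = 0.0784) and 0.13 for Hadhb (interval -0.003 to 0.27, adjusted p = 0.138). Neither was called, and Hadha passed when the first control was left out (adjusted p = 0.0485). The ratio of Hadha to Hadhb on TPM was 1.26, 1.21 and 1.23 under the control virus and 1.27, 1.32 and 1.14 in knockout libraries. These ranges overlap, and the mean log2 difference of 0.0094 was smaller than the SD within either group (two-sided exact permutation p = 0.9). Hadhb had fractional counts in all 6 libraries that added up to whole numbers with those of its pseudogene Hadhb-ps, which held 0.313% to 1.41% of the sum.

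Acaa1a encodes a peroxisomal 3-ketoacyl-CoA thiolase, which releases acetyl-CoA at the end of each peroxisomal round, and lies on chromosome 9, 119339676 to 119350299, plus strand (ENSMUSG00000036138). Its level was 66.1, 59.96 and 69.1 CPM under the control virus and 49.8, 47.5 and 50.4 CPM in knockout libraries. Each control was above each knockout library, and the controls varied more among themselves. The level fell 1.32-fold, with a 95% interval of 1.20 to 1.46 (adjusted p = 5.05e-05). On TPM it was 74.2, 64.1 and 77.5 under the control virus and 56.6, 54.4 and 53.7 in knockout libraries, and the 3 limma tests on TPM did not call it (adjusted p = 0.0513 to 0.0655).

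Counts of Acaa1a were fractional in all 6 libraries, and their sum with the counts of its close paralog Acaa1b was whole in each library, so the split between these genes is uncertain. These sums were 725, 632 and 647 under the control virus and 466, 541 and 554 in knockout libraries, so the groups did not overlap for the pair either. With both genes summed the log2 fold change was -0.36 (adjusted p = 0.000177). The share given to Acaa1b was 2.45% to 3.25% under the control virus and 4.74% to 6.72% in knockout libraries, and Acaa1b itself was not called (adjusted p = 0.153). Acaa1a also shares 290 exon bases with Myd88 on the opposite strand, an adaptor of Toll-like receptors that stood at 15.3 ± 1.15 CPM under the control virus and 12.0 ± 2.58 in the knockout (SD, n = 3 each; adjusted p = 0.0515). The ratio of Acaa1a to Hadhb, the peroxisomal against the mitochondrial thiolase, was 1.30, 1.18 and 1.48 under the control virus and 0.957, 0.962 and 0.840 in knockout libraries. Each control ratio was higher than each knockout ratio (mean log2 difference -0.52, two-sided exact permutation p = 0.1, adjusted p = 0.25).

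Ppara encodes PPARα and lies on chromosome 15, 85734983 to 85802819, plus strand (ENSMUSG00000022383). It was counted 2, 0 and 1 times in control libraries and 1, 2 and 1 times in knockout libraries. Every library was under the floor of 3 counts, so the gene did not pass the filter and no fold change is given. A difference in Ppara between the groups was not detectable at this depth.

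**Figure D3:**
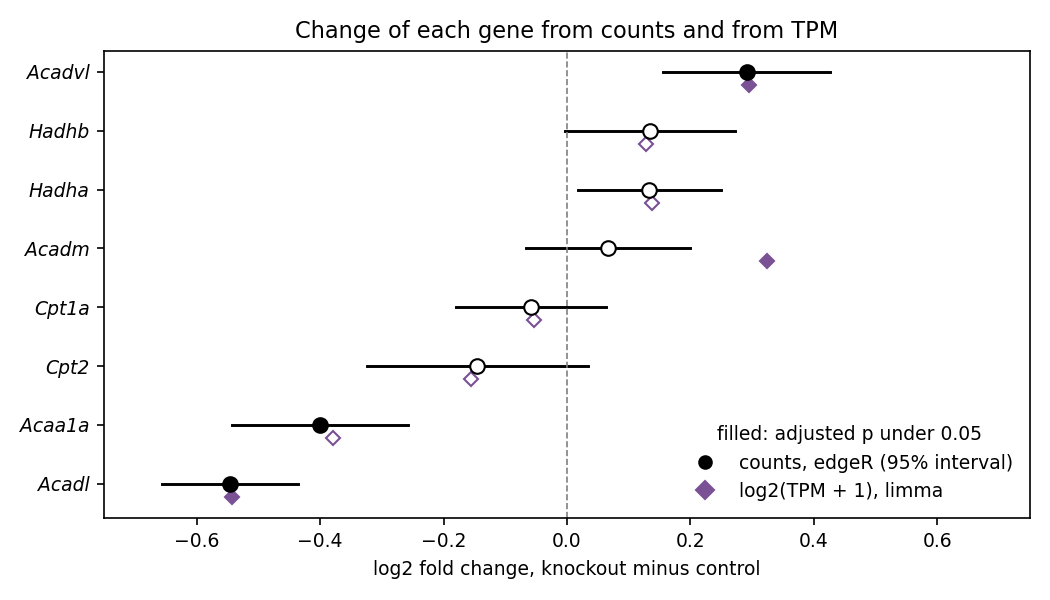
Log2 fold change (knockout minus control, horizontal axis) of 8 members from counts with edgeR (circles, with 95% intervals as lines) and from log2(TPM + 1) with limma (diamonds), filled where the adjusted p was under 0.05. Acadl and Acaa1a lie to the left, Acadvl to the right, and Acadm is at 0.07 by counts and 0.32 by TPM.

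Per length, on TPM, Acadl led in both groups, at 162 ± 4.74 under the control virus and 110.8 ± 2.80 in the knockout (SD, n = 3 each). In the controls Acadvl (76.2 ± 2.28), Acaa1a (71.9 ± 6.98) and Hadha (67.4 ± 3.99) came next, with ranges of neighbours that overlapped. Acadm (60.4 ± 1.64), Hadhb (54.6 ± 2.39), Cpt1a (36.4 ± 0.986) and Cpt2 (26.6 ± 2.14) followed in separate steps, and Ppara was last, listed at 0 to 0.1. In the knockout the order was Acadl, Acadvl at 93.7 ± 3.79, Acadm, Hadha, Hadhb, Acaa1a at 54.9 ± 1.55, Cpt1a and Cpt2. The ranges overlapped between Acadm and Hadha and between Hadhb and Acaa1a. Acaa1a moved from place 3 to place 6, and the summed TPM of the 8 counted members was 555 ± 5.56 under the control virus and 528 ± 4.96 in the knockout.

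Other genes of the pathway were read from 10 lists, which together held 165 genes besides the members, 149 of them tested. Of these 23 were higher and 43 lower, or 44.3%, beside the 36.6% of all tested genes. The limma test on log2(TPM + 1) with a filter called 12 higher and 13 lower of the same lists, and over all genes it called 1075 higher and 1047 lower, against 2516 and 2512 by counts. Counts per list below are from edgeR, and a gene on several lists is counted in each.

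**Figure D4:**
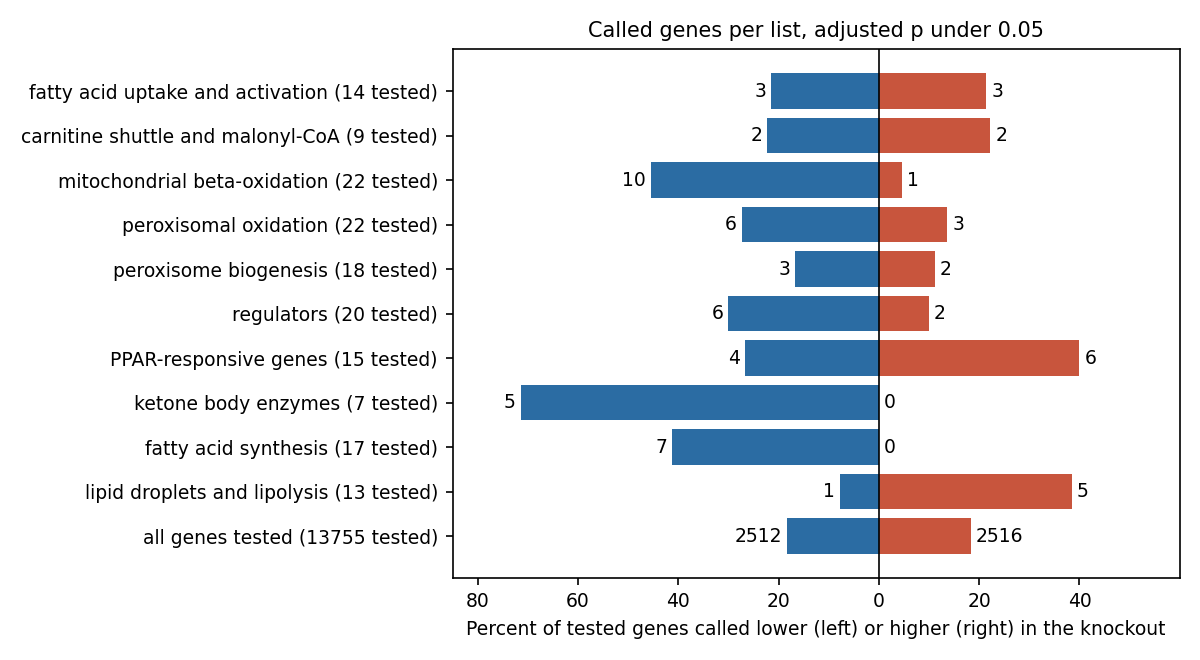
Percent of tested genes called lower (blue, left) or higher (red, right) in the knockout for 10 lists of fatty acid metabolism and for all 13755 genes tested, with the number of genes beside each bar. Ketone body enzymes and fatty acid synthesis have 5 and 7 genes called lower and 0 called higher, while 5 of 13 lipid droplet genes were called higher and 1 lower.

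Of 14 tested genes of fatty acid uptake and activation, 3 rose, 3 fell and 8 did not pass. The fatty acid binding protein gene Fabp5 rose 1.48-fold, from 34.7 ± 2.70 to 51.5 ± 4.50 CPM (adjusted p = 2.87e-06), and Fabp3 rose 1.63-fold (adjusted p = 0.0153). Acsl1, a long-chain acyl-CoA synthetase, fell 1.51-fold (adjusted p = 0.000735), while Acsl6, of the same family, rose 3.23-fold from 1.86 CPM (adjusted p = 5e-06). Slc27a2, a fatty acid transporter and very long-chain synthetase, fell from 1.69 ± 0.641 to 0.526 ± 0.429 CPM (adjusted p = 0.0092), and the acyl-CoA binding protein gene Dbi fell 1.15-fold (adjusted p = 0.0181).

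Of 9 tested genes of the carnitine shuttle and malonyl-CoA, 2 rose, 2 fell and 5 did not pass. Slc25a20, the carrier that exchanges acylcarnitine for carnitine between the steps of Cpt1a and Cpt2, rose 1.24-fold (adjusted p = 0.00268). Slc22a5, the plasma membrane carnitine transporter, fell 1.68-fold, from 15.7 ± 1.79 to 9.38 ± 1.84 CPM (adjusted p = 0.000176), with fractional counts in 6 libraries. Acaca, the acetyl-CoA carboxylase that makes malonyl-CoA, an inhibitor of carnitine palmitoyltransferase 1, fell 1.20-fold (adjusted p = 0.00305), with fractional counts in 5 libraries. Cpt1c, a relative of Cpt1a found mainly in neurons, rose 1.28-fold (adjusted p = 0.00418). Cpt1b, the muscle form, stood at 1.31 ± 1.11 and 1.58 ± 0.667 CPM and was not called (adjusted p = 0.698).

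The list of mitochondrial beta-oxidation, without the members, gave 10 lower, 1 higher and 11 not passing of 22. The median log2 fold change was -0.21, beside -0.0085 over all genes tested. Besides beta-oxidation enzymes, this list held genes of propionyl-CoA and branched-chain amino acid breakdown. Called lower were Pcca, Pccb, Mcee and Mmut of propionyl-CoA breakdown, Acadsb, Hsd17b10, Acad10, Acad12, Hadh and Etfa. Not called were Echs1, Acaa2, Eci1, Eci2, Decr1, Etfb, Etfdh, Acads, Acad8, Acad9 and Mmachc. The counts of this list therefore do not describe fatty acid beta-oxidation alone. Pcca, a subunit of propionyl-CoA carboxylase, fell 1.49-fold (adjusted p = 0.000184). Acadsb, for short branched chains from isoleucine, fell 1.31-fold by counts (adjusted p = 0.000707), but its TPM averaged 27.6 under the control virus and 32.9 in the knockout. Hsd17b10, which also serves isoleucine breakdown, fell 1.27-fold (adjusted p = 0.00138). Hadh, the short-chain 3-hydroxyacyl-CoA dehydrogenase, fell 1.16-fold (adjusted p = 0.0143). Acad11 rose 1.30-fold (adjusted p = 5.67e-05). Acads, the short-chain dehydrogenase next to Acadm in chain length, was at 58.6 ± 2.37 and 58.0 ± 5.17 CPM and was not called.

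Of 22 tested genes of peroxisomal oxidation, 3 rose, 6 fell and 13 did not pass. Scp2, whose longer product is the thiolase for branched chains and bile acid precursors, fell 1.56-fold, from 107.9 ± 0.647 to 69.3 ± 1.52 CPM (adjusted p = 8.16e-10), with fractional counts in 4 libraries. On TPM the fall of Scp2 was smaller, from 183.7 ± 6.05 under the control virus to 151.9 ± 5.91 in the knockout. Pecr, a trans-2-enoyl-CoA reductase, fell 1.84-fold (adjusted p = 0.000883), and the peroxisomal acyl-CoA transporter gene Abcd3 fell 1.16-fold (adjusted p = 0.00646). The acyl-CoA oxidases for branched chains rose, Acox3 by 1.48-fold (adjusted p = 2.51e-07) and Acox2 by 2.06-fold from 6.84 CPM (adjusted p = 4.16e-06). On TPM Acox3 averaged 42.6 ± 6.83 under the control virus and 52.2 ± 6.29 in the knockout, and Acox2 7.34 ± 4.88 and 12.4 ± 2.24. Abcd4 also rose (1.42-fold, adjusted p = 0.0057). Its product is a lysosomal cobalamin transporter, so the 3 that rose include a gene outside peroxisomal oxidation. Of 18 peroxisome biogenesis genes, 2 rose, 3 fell and 13 did not pass. The import receptor gene Pex5 fell 1.47-fold (adjusted p = 2.51e-06), and Pxmp2, a channel of the peroxisomal membrane, rose 2.44-fold (adjusted p = 8.07e-08). Pex14, of the import docking complex, rose 1.14-fold (adjusted p = 0.0499), while Pex11g and Pex26 fell 1.38-fold and 1.17-fold (adjusted p = 0.0206 and 0.0281).

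Among 20 tested regulators, 2 rose, 6 fell and 12 did not pass. Hnf4a, a transcription factor of proximal tubule and liver, fell 1.89-fold, from 13.1 ± 0.442 to 6.98 ± 1.02 CPM (adjusted p = 2.12e-05). Prkaa2, a catalytic subunit of the energy sensor AMPK, fell 1.32-fold (adjusted p = 3.93e-05) and Sirt3, a mitochondrial deacetylase, 1.54-fold (adjusted p = 0.00437). Lpin1, a phosphatidate phosphatase and transcriptional coactivator, rose 1.39-fold (adjusted p = 0.000398). Of the other PPAR genes, Ppard was at 25.1 ± 3.10 and 29.6 ± 1.10 CPM (adjusted p = 0.0532) and Pparg fell from 2.80 ± 0.682 to 1.17 ± 0.352 CPM (adjusted p = 0.00709), and the partner receptor Rxra was at 53.4 ± 4.72 and 53.9 ± 2.17 CPM and was not called (adjusted p = 0.908).

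Of 21 genes known to respond to PPAR receptors, 15 were tested, and 6 rose, 4 fell and 5 did not pass. Vnn1, a pantetheinase, rose 3.29-fold, from 7.18 ± 0.521 to 23.7 ± 0.595 CPM (adjusted p = 2.95e-12). Angptl4, a secreted inhibitor of lipoprotein lipase, rose 1.58-fold (adjusted p = 3.46e-08) and Ucp2, a mitochondrial carrier, 1.38-fold (adjusted p = 9.52e-07). Txnip fell 1.29-fold (adjusted p = 1.97e-06), and the peroxisomal bifunctional enzyme gene Ehhadh fell from 1.84 ± 0.0443 to 0.755 ± 0.318 CPM (adjusted p = 0.0153). Pdk4, a kinase that restrains pyruvate oxidation, stood at 15.8 ± 1.29 and 16.0 ± 2.16 CPM and was not called (adjusted p = 0.936).

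Ketone body enzymes gave 5 lower, 0 higher and 2 not passing of 7 tested. Oxct1, which activates acetoacetate for use in mitochondria, fell 1.79-fold, from 67.6 ± 2.08 to 37.6 ± 1.73 CPM (adjusted p = 8.48e-11). On TPM the fall of Oxct1 was smaller, from 34.68 ± 1.72 under the control virus to 24.65 ± 10.56 in the knockout, where the libraries varied widely. Acat2, a cytosolic thiolase known from sterol synthesis, fell 1.55-fold (adjusted p = 6.82e-07), with fractional counts in 6 libraries. Bdh2 fell 5.62-fold from 3.65 CPM (adjusted p = 4.59e-06). Of 17 tested genes of fatty acid synthesis, 7 fell, 0 rose and 10 did not pass. The desaturase gene Scd1 fell 1.47-fold (adjusted p = 4.49e-08), the elongase gene Elovl6 1.56-fold (adjusted p = 1.5e-06) and Me1, a source of NADPH, 1.24-fold (adjusted p = 3.58e-05, with fractional counts in 2 libraries). Of 13 tested genes of lipid droplets and lipolysis, 5 rose, 1 fell and 7 did not pass. Plin2, a droplet coat protein, rose 1.14-fold, from 618 ± 27.2 to 703 ± 49.8 CPM (adjusted p = 0.0027), Fitm2 rose 1.41-fold (adjusted p = 0.000175) and G0s2, an inhibitor of the lipase Pnpla2, rose from 1.70 ± 0.358 to 4.05 ± 0.35 CPM (adjusted p = 0.0011). Plin3 fell 1.17-fold (adjusted p = 0.00774).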

How the data were processed

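Estimated counts per gene were deposited by the authors without scaling, and 93.3% of nonzero values were whole within 1e-06. TPM were deposited by the authors in a second table, with the same sum in each library. Per the submitters' processing notes, featureCounts, Salmon and mm10 were used, with no version or role named. The strand setting and annotation release are stated neither there nor in the labels. Members and lists were chosen with earlier results of these data known.

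Counts were rounded, filtered with filterByExpr (13755 of 55487 genes kept), scaled with TMM and tested with edgeR 4.0.16 in R 4.3.3 (quasi-likelihood test, Benjamini-Hochberg, threshold 0.05, no covariate). CPM use TMM-scaled totals. Standard errors were derived from the test's F, and intervals are 1.96 standard errors. limma 3.58.1, DESeq2 1.42.0 and the alternatives listed below were also run, and the edgeR, DESeq2, voom and limma fits were tested on simulated counts. There edgeR recovered 38% of 1.25-fold changes and 80% of 1.5-fold changes. Far fewer genes were changed in the simulation than were called in the data. They were drawn at all levels of counts, so these shares need not hold for the members. The tested members that were not called differed by 1.04-fold to 1.11-fold. For them, the lack of a call does not show a lack of change. Positions are from GENCODE M21. Libraries within each group were further apart than counting noise alone gives (chi-square per degree of freedom 2.02 to 3.65).

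Named pathway genes are, by rule, the 3 smallest p-values per direction in each list. Cpt1b, Acads, Ppard, Pparg, Rxra and Pdk4 were named outside that rule after their values were seen. So were the remaining genes of the mitochondrial beta-oxidation list. Exons of pathway genes outside the members were not checked for overlap. Some genes of the lists are counted but not reported here by name.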

Additional observations from a re-analysis of the deposited data

How the results depend on the processing

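Directions and calls of the 8 counted members were unchanged under RLE factors, library totals, DESeq2, limma-voom, without the filter on counts, with a minimum mean of 5 CPM, and an adjusted p under 0.01. With the replicate number as a block the calls were also the same (Acadl log2 fold change -0.55, adjusted p = 2.11e-12; 2561 genes higher and 2585 lower). Deviations from the group mean gave r = 0.0017 to 0.0138 across genes for same-numbered libraries. For differently numbered pairs r was -0.0488 to 0.0401. Centring on 3 libraries per group constrains these values, so they cannot tell if same-numbered libraries shared a source.

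The settings with limma on TPM moved the numbers of called genes most. They were log2(TPM + 1) with a filter, log2(TPM + 0.1) with a filter, and log2(TPM + 1) without one. In that order, 1075, 980 and 937 genes were higher and 1047, 925 and 887 lower. Pathway genes gave 12, 10 and 9 higher and 13, 12 and 11 lower. Members gave 2 higher in the first setting, and 1, 1 and 1 lower. Acadm was called at 0.32, 0.33 and 0.32, Acaa1a was not called at -0.38, -0.39 and -0.38, and Acadvl was not called at 0.30 in either of the last 2. The cause was not tested, except that Acadm differed in counts per TPM.

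Leaving out single libraries gave log2 fold changes of -0.58 to -0.52 for Acadl, -0.45 to -0.35 for Acaa1a, 0.23 to 0.35 for Acadvl, 0.11 to 0.18 for Hadha (called without control replicate 1, so that 1 to 2 members were higher), 0.11 to 0.18 for Hadhb, 0.05 to 0.09 for Acadm, -0.07 to -0.04 for Cpt1a and -0.18 to -0.07 for Cpt2, and between 2161 and 2583 genes higher and 2031 and 2426 lower, with 20 to 23 pathway genes higher and 32 to 45 lower. The Hadha to Hadhb difference ranged from -0.0335 to 0.0703 and was -0.0017 on CPM, so it has no stable sign; Acadvl to Acadm was 0.22 on CPM. Summing Acaa1a with Acaa1b (-0.36) and Hadhb with Hadhb-ps (0.14) was chosen after seeing the data and changed no call. Low counts leave Ppara unmeasured.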

Other observations

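Genes whose levels over the 6 libraries ran most like those of a called member were read by Pearson's r of log2(CPM + 1), among 10553 genes with a mean of at least 5 CPM. The groups differ in each of them, so a high r over 6 points mostly restates that difference, and it is given as a description. For Acadl they were Spp1, encoding osteopontin (r = 0.999), Havcr1, encoding the kidney injury molecule KIM-1 (r = 0.999), and Keg1 (r = 0.998). Spp1 fell 2.46-fold, Havcr1 fell 2.34-fold, from 413 ± 14.2 to 177 ± 19.2 CPM, and Keg1 fell 6.59-fold (edgeR adjusted p = 7.68e-20, 2.87e-17 and 2.98e-12). For Acaa1a they were Fbxo21, Pold2 and Exd2 (r = 0.999, 0.996 and 0.995), which fell 1.53-fold, 1.61-fold and 1.49-fold. For Acadvl they were Arhgap27, Inka2 and Aldh18a1 (r = 0.994, 0.994 and 0.987), which rose 1.15-fold, 1.17-fold and 1.18-fold. These fold changes are from counts, and the TPM means of all these genes moved in the same direction. Pold2 averaged 27.8 ± 11.6 TPM under the control virus and 19.9 ± 10.8 in the knockout. Inka2 averaged 35.0 ± 2.56 and 36.4 ± 1.73 TPM.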
